A study of Mus musculus with 8 samples.

Results

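The 10 genes described here are the established melanocyte genes Dct, Pmel, Tyr, Tyrp1, Mlana, Mitf, Sox10, Slc45a2, Kit and Gpr143, followed through bulk RNA-seq of mouse skin epithelium. They were taken by symbol and by no cut-off on a measured value, though with earlier results of these data known. All 10 were found among the 23432 gene symbols listed in each library. Their loci in mm10, from GENCODE M21, were chr14:118012790-118052244 on the minus strand for Dct, chr10:128704195-128720238 on the plus strand for Pmel, chr7:87424771-87493512 on the minus strand for Tyr and chr4:80834123-80851719 on the plus strand for Tyrp1. Mlana lay at chr19:29697824-29708634 on the plus strand, Mitf at chr6:97807052-98021349 on the plus strand, Sox10 at chr15:79154908-79165240 on the minus strand, Slc45a2 at chr15:11000721-11029233 on the plus strand, Kit at chr5:75574916-75656722 on the plus strand and Gpr143 at chrX:152781921-152808646 on the plus strand. All 10 are protein coding. The counted values are sums over the exons of each gene. Pmel was the 1 member whose exons overlapped those of other counted genes, with 105 bases shared with Cdk2 and Dgka on the opposite strand.

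The study asked what the histone acetyltransferase MOF (gene Kat8) and Kansl1, a subunit of the MOF-containing NSL complex, do in the developing skin epithelium, by deleting each gene with Krt14-Cre. The 4 groups of 2 libraries each were E16.5 control and E16.5 MOF cKO (Krt14-Cre with MOF fl/fl), made from dorsal skin cells sorted for Krt14-H2BGFP, and P0.5 control and P0.5 Kansl1 cKO (Krt14-Cre with Kansl1 fl/fl, exon 3 removed), made from dispase-separated newborn epidermis. Krt14 is a keratinocyte gene, so the deletions were not directed at melanocytes. The animals were of both sexes on a mixed C57Bl/6J and CD-1 background, CD-1 being an albino stock, and the labels give the control animals no genotype beyond Control. They do not say whether a library was 1 animal or a pool, so the p-values measure the spread between these libraries, which may be partly technical.

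Melanocytes arise from the neural crest, enter the epidermis during embryonic development and then collect in the hair follicles, where they make pigment for the hair. The transcription factors SOX10 and MITF maintain the lineage. The receptor tyrosine kinase KIT, activated by KIT ligand from keratinocytes and dermal cells, is needed for the survival and migration of their precursors. MITF switches on the genes of the melanosome, the organelle in which tyrosinase (Tyr), its relatives TYRP1 and DCT, the fibril protein PMEL, MLANA, the transporter SLC45A2 and the receptor GPR143 work. In the melanocyte, MITF is known to bind the M-box, a CATGTG element, in promoters of the tyrosinase family.

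The 250 bases upstream of the RefSeq start of the 3 tyrosinase family genes are shown because they share this element. Sequences are from RefSeq on GRCm38.p6, 5′ to 3′ on the strand of the gene, with every CATGTG on either strand, and the longer shared run TCATGTGCT, in capitals. They span chr7:87493513-87493762 on the minus strand for Tyr, chr4:80833963-80834212 on the plus strand for Tyrp1 and chr14:118052247-118052496 on the minus strand for Dct.
Tyr: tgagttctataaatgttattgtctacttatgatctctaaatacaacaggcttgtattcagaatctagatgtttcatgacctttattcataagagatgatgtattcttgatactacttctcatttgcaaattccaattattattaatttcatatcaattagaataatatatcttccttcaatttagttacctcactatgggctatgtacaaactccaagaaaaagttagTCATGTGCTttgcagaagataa
Tyrp1: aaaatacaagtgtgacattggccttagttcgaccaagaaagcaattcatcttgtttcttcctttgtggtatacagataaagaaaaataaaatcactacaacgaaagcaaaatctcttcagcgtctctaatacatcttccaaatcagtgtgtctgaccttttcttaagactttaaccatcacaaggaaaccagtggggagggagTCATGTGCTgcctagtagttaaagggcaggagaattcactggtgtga
Dct: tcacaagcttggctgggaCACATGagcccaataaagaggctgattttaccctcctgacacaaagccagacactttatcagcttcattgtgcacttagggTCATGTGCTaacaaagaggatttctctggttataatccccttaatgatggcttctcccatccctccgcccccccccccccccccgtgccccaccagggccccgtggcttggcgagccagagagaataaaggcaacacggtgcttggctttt
The first base of the plus-strand CATGTG lay 21 bases before the start in Tyr, 46 in Tyrp1 and 150 in Dct, and Dct held another CATGTG on the minus strand at 232. Over all 32851 RefSeq mouse promoter windows of the same length, 12.3% held CATGTG on either strand, 6.02% held the palindrome CACGTG and 0.335% held TCATGTGCT, a run chosen after these sequences were read and one that contains the shorter CATGTG. The windows of Kit and Mitf held none of the 3 runs. RefSeq promoter windows were matched for 5 of the 10 genes, and those of Pmel, Mlana, Sox10, Slc45a2 and Gpr143 were not used here.

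The E16.5 libraries held 22484018 to 27561688 counts on genes and the P0.5 libraries 9108709 to 19774643. The deleted genes themselves were read first. Kat8, which encodes MOF, was at 14.4 and 14.7 CPM in E16.5 control against 12.4 and 13.9 in MOF cKO (log2 fold change -0.14, edgeR adjusted p = 0.554), and Kansl1 was at 41.1 and 48.9 CPM in P0.5 control and 31.0 and 30.2 in Kansl1 cKO (-0.52, edgeR adjusted p = 0.242). Neither difference passed the test, and counts summed over a gene also read the transcript left after an exon is removed. The paper reports that the histone mark made by MOF was largely depleted in MOF cKO epidermis by E16.5. It also reports the deletion of Kansl1 exon 3 by genotyping, qPCR and RNA-seq. Markers of the labelled tissue were high throughout, with 12 keratinocyte genes summing to 39660 to 50210 CPM at E16.5 and 59050 to 92800 at P0.5. Xist, transcribed from the inactive X chromosome, was high in replicate 1 of E16.5 control and low in the other 3 E16.5 libraries, and low only in replicate 2 of P0.5 control among the P0.5 libraries, so sex was not balanced between the groups.

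In newborn epidermis, all 10 melanocyte genes were higher in both Kansl1 cKO libraries than in either P0.5 control library. Their summed level was 532.8 and 622.4 CPM in P0.5 control and 1171 and 1249 in Kansl1 cKO, a ratio of means of 2.095, with CPM scaled by TMM factors within the P0.5 libraries. By gene the fitted change ran from 2.01-fold to 2.91-fold. In edgeR's quasi-likelihood test with Benjamini-Hochberg adjustment over 13031 genes, 0 of the 10 reached the call used here, an adjusted p of at most 0.01 with a change over 1.5-fold, and neither did any other gene (0% called). All 10 had an unadjusted p under 0.05, beside 15.7% of all genes tested. DESeq2 with the same thresholds called 4 of the 10, Dct, Pmel, Tyr and Tyrp1, against 0.877% of the 11515 genes to which it gave an adjusted p. Of all genes tested, 22.5% were higher in both Kansl1 cKO libraries than in both controls. In these whole-epidermis samples, more melanocytes and more RNA of these genes per melanocyte cannot be told apart.

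**Figure D1:**
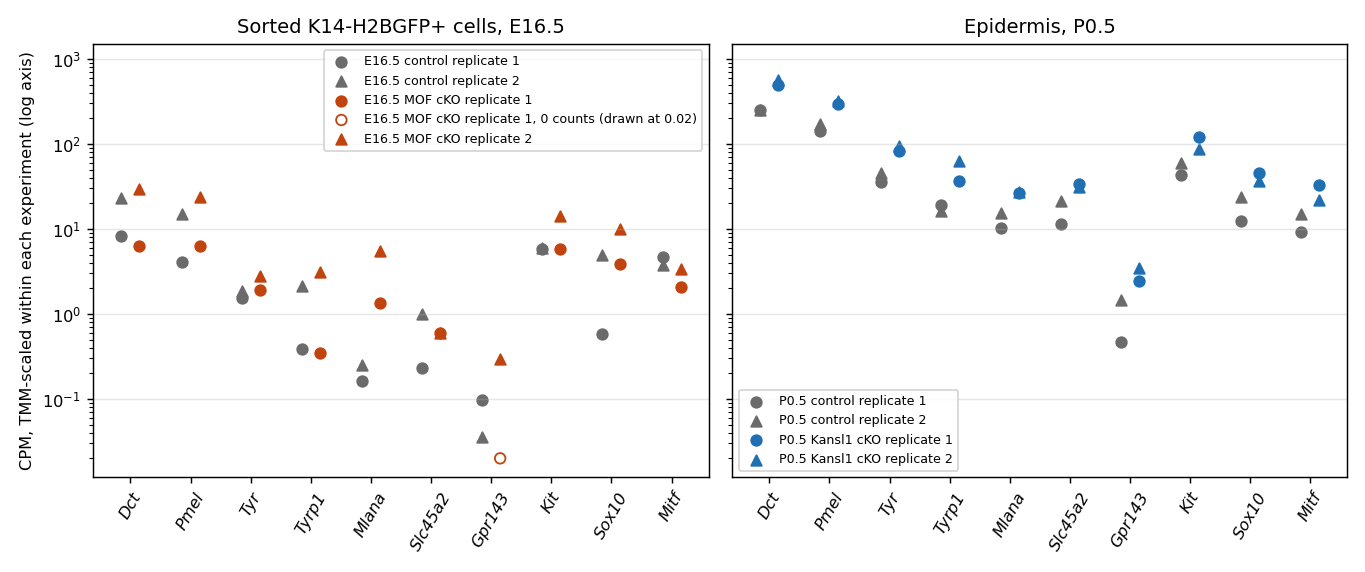
CPM of each melanocyte gene in every library on a log axis, E16.5 sorted cells on the left and P0.5 epidermis on the right, with CPM scaled within each experiment and circles for replicate 1 and triangles for replicate 2. All Kansl1 cKO points lie above both control points of the same gene, whereas E16.5 control and MOF cKO points overlap for most genes and replicate 2 of either E16.5 genotype lies above replicate 1 for Dct and Pmel.

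The 3 tyrosinase family genes lay higher in Kansl1 cKO. Dct, which encodes dopachrome tautomerase and is an early marker of the lineage, was at 249.7 and 250.4 CPM in P0.5 control and 491.2 and 561.6 in Kansl1 cKO (log2 fold change 1.11 ± 0.17 SE, edgeR adjusted p = 0.176). Tyr, which encodes the rate-limiting enzyme of melanin synthesis, was at 36.1 and 45.5 CPM against 81.9 and 93.9 (1.14 ± 0.18, edgeR adjusted p = 0.176). The control libraries of Dct were nearly level and those of Tyr differed by less than their distance to the mutants. Tyrp1, whose product stabilises tyrosinase and takes part in eumelanin synthesis, was at 19.1 and 16.4 CPM against 36.9 and 62.7 (1.53 ± 0.28, edgeR adjusted p = 0.176). Here the 2 mutant libraries stood further apart than the controls did from each other. The 3 genes whose promoter windows carry the shared TCATGTGCT had changes of 1.11 to 1.53. Kit and Mitf, whose windows lacked it, had 1.07 and 1.19, so the sets overlapped. The part of this run in the changes was not tested.

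The structural and transport genes of the melanosome had changes of similar size. Pmel, which forms the fibrils on which melanin is deposited, was at 141.1 and 173.9 CPM in P0.5 control and 298.1 and 323.3 in Kansl1 cKO (1.02 ± 0.18, edgeR adjusted p = 0.176). Mlana, a small melanosomal membrane protein that acts with PMEL, was at 10.3 and 15.5 CPM against 26.6 and 27.4 (1.09 ± 0.23, edgeR adjusted p = 0.185). In both genes the mutant libraries agreed more closely with each other than the control libraries did in proportion. Slc45a2, a transporter that sets melanosomal pH, was at 11.6 and 21.4 CPM against 34.2 and 31.0 (1.01 ± 0.28, edgeR adjusted p = 0.220). Gpr143, an X-linked receptor of the melanosome, had only 4 and 22 counts in control and 51 and 44 in Kansl1 cKO (1.54 ± 0.55, edgeR adjusted p = 0.271), the widest error of the 10.

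The regulators and the receptor also lay higher. Mitf, the master regulator of melanocyte gene expression, was at 9.25 and 15.04 CPM in P0.5 control and 32.5 and 21.7 in Kansl1 cKO (1.19 ± 0.30, edgeR adjusted p = 0.204). Sox10, a neural crest factor that melanocytes share with glia, was at 12.5 and 23.7 CPM against 45.6 and 36.4 (1.20 ± 0.30, edgeR adjusted p = 0.204). Kit, which marks melanoblasts and also mast cells, was at 42.8 and 59.3 CPM against 121.6 and 87.5 (1.07 ± 0.23, edgeR adjusted p = 0.197). For these 3 genes and Slc45a2, replicate 1 of control was the lowest library and replicate 1 of Kansl1 cKO the highest. The median log2 fold change of the 10 genes was 1.13, beside 0.01 over all genes tested. The size of the change depended on the libraries. With 1 library left out, the log2 fold change ran from 0.78 to 1.29 for Kit and from 0.84 to 1.72 for Sox10. For Tyrp1 it ran from 1.10 to 1.83. The lowest fold change of any of the 10 genes in the 11 alternative settings was 0.657 on the log2 scale.

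**Figure D2:**
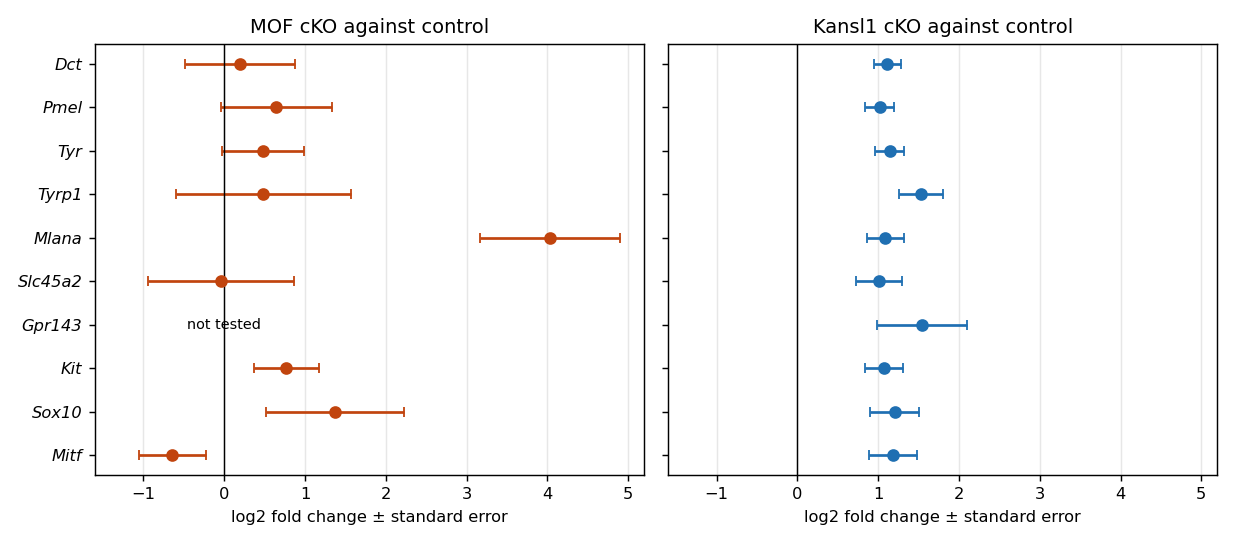
Log2 fold change of each melanocyte gene (points) with its standard error (bars) for MOF cKO against E16.5 control on the left and Kansl1 cKO against P0.5 control on the right, from edgeR. The Kansl1 cKO values lie between 1.01 and 1.54 for all 10 genes, while the MOF cKO values run from -0.64 for Mitf to 4.03 for Mlana and Gpr143 was not tested there.

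The shares of the leading genes in P0.5 epidermis were alike in the 2 genotypes. Dct gave 40.2% to 46.9% of the summed counts of the 10 genes in all 4 P0.5 libraries, and Pmel 25.5% to 27.9%. For each Tyr count there were several Dct counts, with a ratio of Tyr to Dct of 0.145 and 0.182 in control and 0.167 and 0.167 in Kansl1 cKO. The ratio of Mlana to Dct was 0.0412 and 0.0619 in control and 0.0541 and 0.0488 in Kansl1 cKO, so the mutant libraries lay inside the range of the controls for both ratios. The ratios of Pmel, Sox10 and Slc45a2 to Dct did so too. Kit to Dct was 0.171 and 0.237 in control and 0.248 and 0.156 in Kansl1 cKO, outside that range on both sides. Mitf to Dct was 0.0371 and 0.0601 in control and 0.0662 and 0.0387 in Kansl1 cKO. Tyrp1 to Dct was 0.0764 and 0.0653 in control, 0.0751 in replicate 1 of Kansl1 cKO and 0.112 in replicate 2, whose 95% exact binomial interval of 0.104 to 0.120, which covers counting error only, lay above the other 3 values.

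**Figure D3:**
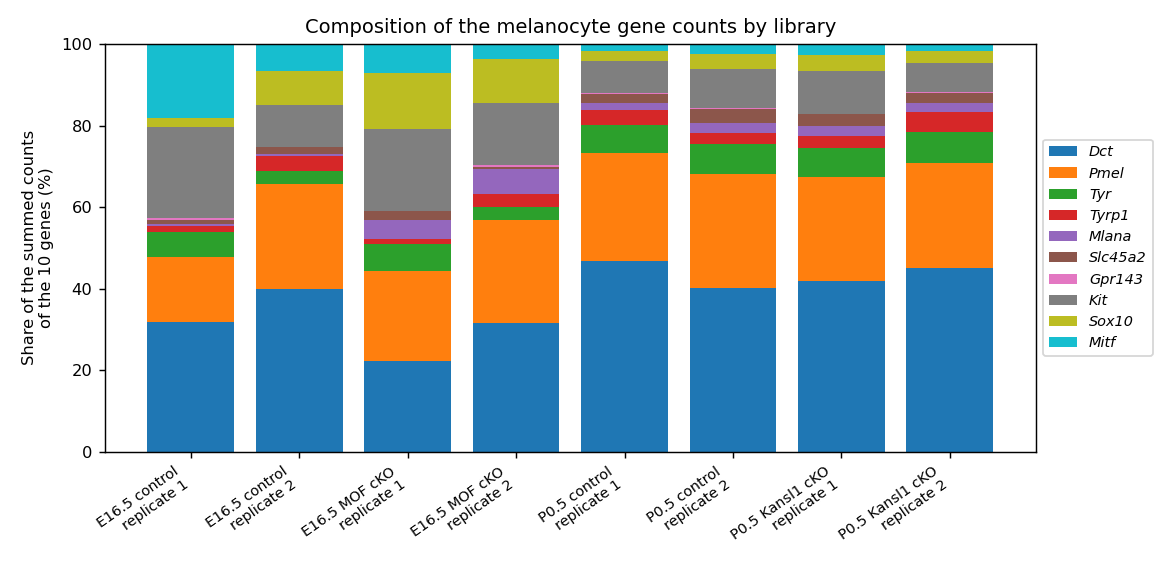
Stacked bars of the share (%) of each melanocyte gene in the summed counts of the 10 genes, 1 bar per library. The 4 P0.5 bars are close to each other, with Dct between 40.2% and 46.9%, while each E16.5 bar holds a larger share of Mitf than any P0.5 bar and the 2 MOF cKO bars a larger share of Mlana (4.71% and 5.98%) than the 2 E16.5 control bars (0.633% and 0.434%).

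Of 24 further pigment cell genes outside the 10, 22 were tested in the P0.5 comparison and 20 had higher values in Kansl1 cKO, 19 of them without overlap between the groups. The median log2 fold change was 0.87, 15 had an unadjusted p under 0.05 (15.7% of all genes), and edgeR and DESeq2 each called 0. Several of these further genes were also on the melanosome and glial lists that follow. The 4 named next were picked after their values were seen. Ednrb, the endothelin receptor that melanoblasts need to migrate, was at 17.8 and 21.9 CPM in control and 35.1 and 50.7 in Kansl1 cKO, and Pax3, an activator of Mitf, at 5.78 and 9.0 against 17.4 and 12.5. Slc24a5, a melanosomal cation exchanger, was at 17.9 and 36.9 CPM against 58.8 and 63.7. Tfap2a, which keratinocytes also express, was at 115.3 and 104.4 CPM against 111.6 and 100.5, with overlapping groups. Among 25 genes of melanosome biogenesis and trafficking, many of which serve lysosome-related organelles in other cells, 10 had higher values in Kansl1 cKO, 0 were called by either tool, 10 had an unadjusted p under 0.05 and the median was -0.08 (all genes 0.01). Of 13 genes for signals that skin sends to melanocytes, 10 were tested, 9 had higher values, 0 were called and 2 had an unadjusted p under 0.05. Among them Kitl, the ligand of KIT, was at 74.1 and 68.6 CPM in control and 117.3 and 109.0 in Kansl1 cKO (log2 fold change 0.70 ± 0.15 SE, edgeR adjusted p = 0.197).

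Markers of other cells were read beside these values in the same P0.5 libraries. The 12 glial markers, which share Sox10 with melanocytes, summed to 58.5 to 68.5 CPM in control and 58.8 to 61.1 in Kansl1 cKO, with Gfap at 0 in replicate 1 of control. Without Egr2, left out after its values were seen because it leads that sum at E16.5, the other 11 summed to 42.0 and 39.4 CPM against 41.9 and 44.8. Of 7 glial markers tested, 5 had higher values in Kansl1 cKO, and Cdh19 (log2 fold change 1.08 ± 0.40 SE) and Fabp7 (0.95 ± 0.43) were higher without overlap, with 0 called by edgeR or DESeq2 and 1 at an unadjusted p under 0.05. The part of glia in the Sox10 values was not tested. The 10 mast cell markers, which share Kit, summed to 30.2 and 5.91 CPM in control and 4.92 and 5.38 in Kansl1 cKO, with Fcer1a at 0 in all 4 libraries. The control library at 5.91 CPM was nearly level with both Kansl1 cKO libraries. Most of the difference in this sum between the genotypes thus rested on replicate 1 of control. What part mast cells had in the Kit values was not tested. The 9 fibroblast markers summed to 1782 and 1116 CPM in control and 921.9 and 736.6 in Kansl1 cKO, and 8 of 9 had lower values there, with 4 of them (Col1a1, Col3a1, Pdgfra and Col1a2) called by DESeq2 and 0 by edgeR, although Dcn, the highest of the list by its mean over all 8 libraries, was at 299.6 and 402.9 CPM in control and 592.6 and 386.0 in Kansl1 cKO. The 11 macrophage markers summed to 162.8 and 189.6 CPM in control and 247.0 and 267.2 in Kansl1 cKO, and 9 of the 10 tested had higher values. The 6 Langerhans and dendritic cell markers summed to 7.98 and 14.7 CPM against 5.204 and 6.70, with Cd207 at 0 in all 4 libraries, and the 7 endothelial markers to 8.21 and 4.401 against 3.58 and 2.96. The keratinocyte sum was 92800 and 60500 CPM in control and 59050 and 86070 in Kansl1 cKO and so overlapped between the groups. The part that different amounts of dermal or immune cells had in the melanocyte values was not tested.

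**Figure D4:**
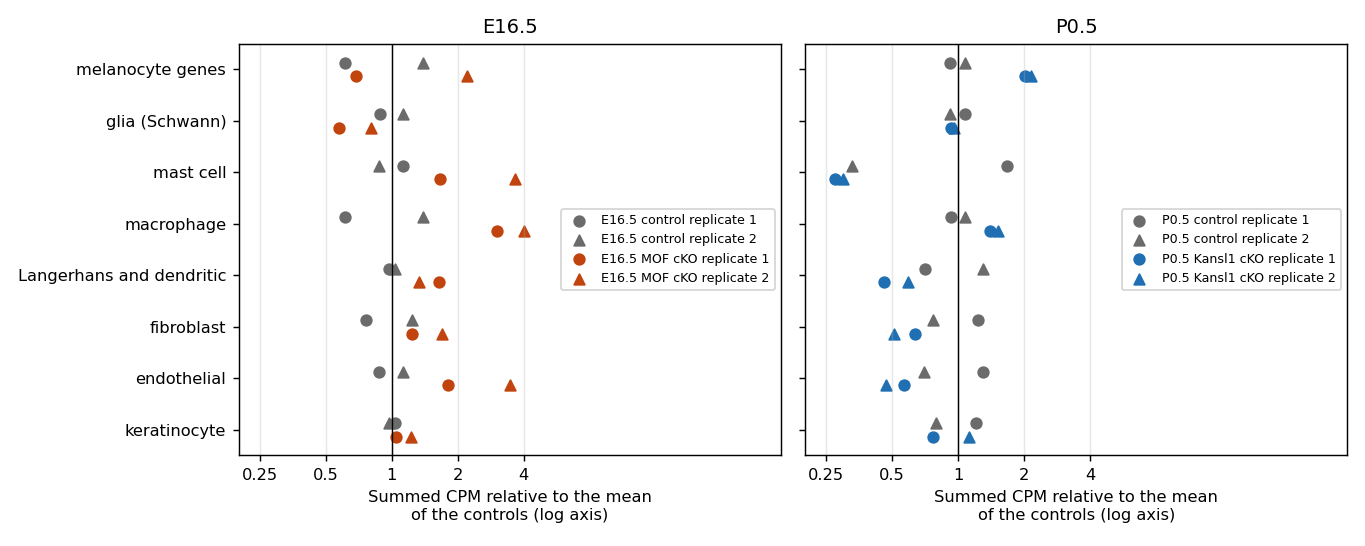
Summed CPM of the melanocyte genes and of 7 marker lists in each library, divided by the mean of the 2 controls of the same experiment, on a log axis. At P0.5 the melanocyte genes of Kansl1 cKO lie near 2.095 times the control mean, the macrophage list lies above control and the fibroblast, endothelial and mast cell lists below the control mean, and at E16.5 the macrophage, mast cell and endothelial lists of MOF cKO lie above control while the melanocyte points overlap.

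In sorted epithelial cells at E16.5, the melanocyte genes as a group did not separate MOF cKO from control, with Mlana as the gene that differed most. Their summed level was 25.8 and 58.2 CPM in control against 28.8 and 92.7 in MOF cKO, so the 2 replicates of either genotype differed more than the genotypes did. Of the 10, 9 passed the filter on low counts and Gpr143, with 3 and 1 counts in control against 0 and 7 in MOF cKO, did not. Of these 9, 7 had higher values in MOF cKO and the median log2 fold change was 0.48, beside -0.02 over all genes tested. In edgeR's quasi-likelihood test 0 of the 9 were called, beside 19.6% of the 13956 genes tested, and 1 had an unadjusted p under 0.05, beside 48.9% of all genes. DESeq2 called 1 of the 9, Mlana, beside 25.4% of all genes. Tyr and Mlana were higher without overlap, beside 34.9% of all genes. Mitf was lower without overlap, beside 5268 of the 13956 genes.

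Mlana had 5 and 7 counts in E16.5 control against 27 and 131 in MOF cKO, or 0.163 and 0.253 CPM against 1.36 and 5.55 (log2 fold change 4.03 ± 0.87 SE). Both mutant libraries lay above both controls and themselves stood apart. The edgeR adjusted p was 0.01009, just over the limit, and DESeq2 gave an adjusted p of 3.5e-05. Relative to Dct, Mlana was at 0.0199 and 0.0109 in control against 0.213 and 0.190 in MOF cKO, with 95% exact binomial intervals of 0.00641 to 0.0471 and 0.00436 to 0.0226 in control and 0.135 to 0.324 and 0.156 to 0.229 in MOF cKO. The mutant replicates thus had nearly the same ratio although their Dct levels differed, and both lay above the 0.0412 to 0.0619 of the P0.5 libraries. The neighbouring genes at either side of Mlana, Ermp1 and 9930021J03Rik, had log2 fold changes of -0.20 and -0.17 (edgeR adjusted p = 0.224 and 0.337). Without replicate 2 of MOF cKO the Mlana change was 2.68, and it was not called.

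The enzymes and the other melanosomal genes overlapped or nearly so. Dct was at 8.18 and 23.2 CPM in E16.5 control against 6.37 and 29.3 in MOF cKO (0.19 ± 0.68, edgeR adjusted p = 0.844), and Pmel at 4.14 and 15.1 against 6.37 and 23.5 (0.65 ± 0.69, edgeR adjusted p = 0.490). In both genes replicate 2 was the higher library in either genotype. Tyr was at 1.53 and 1.84 CPM against 1.91 and 2.79 (0.48 ± 0.51, edgeR adjusted p = 0.482). Tyrp1 had 12 and 59 counts in control against 7 and 74 in MOF cKO, and Slc45a2 7 and 28 against 12 and 14, so these 2 genes were read from few counts and their standard errors were 1.08 and 0.90 on the log2 scale. For Dct, Pmel, Tyrp1, Slc45a2 and Kit the direction of the difference turned when 1 library was left out.

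Among the regulators, Mitf and Sox10 lay on opposite sides. Mitf was at 4.66 and 3.79 CPM in E16.5 control against 2.06 and 3.34 in MOF cKO (-0.64 ± 0.41, edgeR adjusted p = 0.255). Sox10 was at 0.587 and 4.87 CPM against 3.91 and 10.1 (1.37 ± 0.85, edgeR adjusted p = 0.240). The control libraries of Sox10 differed more than those of any other gene of the 10 at this stage did in proportion. Kit was at 5.77 and 5.99 CPM against 5.82 and 14.2 (0.77 ± 0.41, edgeR adjusted p = 0.173), with 1 mutant library level with the controls. With 1 library left out, the log2 fold change of Sox10 ran from 0.52 to 3.57. That of Kit ran from -0.015 to 1.27 and that of Mitf from -1.04 to -0.34. Mitf gave 18.1% and 6.51% of the counts of the 10 genes in control and 7.16% and 3.61% in MOF cKO, above its 1.74% to 2.78% in the 4 P0.5 libraries.

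Among the 24 further pigment cell genes, 22 were tested in MOF cKO and edgeR called 3 higher and 1 lower (DESeq2 4 and 2), a share near the 19.6% and 25.4% of all genes that these tools called. Gpnmb, a PMEL-related glycoprotein that macrophages also make, was at 0.652 and 1.95 CPM in E16.5 control against 22.4 and 26.9 in MOF cKO (4.26 ± 0.43 SE, edgeR adjusted p = 6.98e-04). Trpm1, a cation channel gene under MITF control in melanocytes, rose by 0.86 ± 0.17 on the log2 scale, and Tfap2a rose by 0.60 ± 0.10. Rab27a, a small GTPase that moves melanosomes and other granules, fell by 1.11 on the log2 scale. Of the 25 genes of melanosome biogenesis and trafficking, edgeR called 3 higher and 5 lower, with a median of -0.61. Slc7a11, a cystine transporter used by many cells, went from 1.76 and 0.902 CPM to 34.1 and 20.0, and Mreg, which acts on melanosome transport, from 25.7 and 20.2 to 78.3 and 70.5. Rab32, a GTPase of melanosome transport, also rose (1.29 ± 0.16), whereas Hps4 and Tpcn2, which act on lysosome-related organelles, fell by 1.08 and by 1.78. Of the 10 tested genes for skin signals, edgeR called Bmp4 alone, which fell by 2.63 on the log2 scale. Kitl was at 104.4 and 79.1 CPM in control against 159.8 and 124.5 in MOF cKO (0.63 ± 0.17, edgeR adjusted p = 0.0251), and DESeq2 called it.

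Markers of other cells also differed in the E16.5 libraries. The 11 macrophage markers summed to 20.2 and 46.0 CPM in control against 100.1 and 132.1 in MOF cKO, and edgeR called 6 of the 10 tested higher, Lyz2, C1qa, C1qb, C1qc and Emr1 among them, with Csf1r, the highest of the list by its mean over all 8 libraries, at 0.20 and 0.90 CPM against 10.3 and 11.6. The 10 mast cell markers summed to 27.5 and 21.4 CPM against 40.5 and 89.1, with all 8 tested having higher values, Mcpt4 called by edgeR, and Fcer1a at 0 in 3 of the 4 libraries. The replicate with the highest mast cell sum, replicate 2 of MOF cKO, also had the highest Kit. That library was also the highest for Dct, Pmel and Sox10 and for the macrophage, fibroblast and endothelial sums. It was not the highest for Mitf, Slc45a2 or the full glial and dendritic sums. The 12 glial markers summed to 224.5 and 286.2 CPM in control against 146.0 and 204.2 in MOF cKO, a sum led by Egr2, which hair follicles also express and which fell by 1.57 on the log2 scale, while 9 of the 10 tested glial genes had higher values. Without Egr2 the other 11 summed to 63.8 and 79.2 CPM in control and 95.6 and 130.8 in MOF cKO, so the direction of the glial sum turned. The 9 fibroblast markers summed to 976.9 and 1596 CPM against 1586 and 2179, the 7 endothelial markers to 7.30 and 9.38 against 15.1 and 29.0, and the 6 Langerhans and dendritic cell markers to 6.68 and 7.11 against 11.3 and 9.14. By the mean over all 8 libraries, Pecam1, Cpa3 and Cd74 led the endothelial, mast cell and dendritic lists. The keratinocyte sum was 42410 and 39660 CPM against 42980 and 50210, with Krt1, the highest of that list by the mean over all 8 libraries, called higher together with Krt10 and Ivl, and Krt15 called lower. The part of these other cells in Mlana, Mitf, Kit, Sox10 and Gpnmb was not tested.

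The responses of the 10 genes to the 2 deletions were compared in 1 fit over all 8 libraries, as the MOF cKO effect minus the Kansl1 cKO effect, which rest on separate controls. The effects were measured at different stages, in differently isolated cells and on different sequencers, and these cannot be told apart from the deleted gene. In edgeR's quasi-likelihood test 0 of the 10 differences were called, beside 2.92% of 14565 genes, and 2 had an unadjusted p under 0.05, beside 31.2% of all genes. DESeq2 called the same 2, Mitf and Mlana, beside 976 genes called higher and 520 lower. The difference was -1.86 ± 0.47 SE for Mitf (edgeR adjusted p = 0.0330) and 2.92 ± 0.86 for Mlana (edgeR adjusted p = 0.0519). For Mitf, both MOF cKO libraries lay below their controls and both Kansl1 cKO libraries above theirs. For Dct the difference was -0.95 ± 0.83 and for Kit -0.33 ± 0.50, errors that leave room for a difference of either sign.

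Between the control groups, the melanocyte genes were far higher in P0.5 epidermis than in E16.5 sorted cells. The comparison carries stage, isolation (cells sorted on a Krt14 reporter or whole epidermis) and sequencer together, which cannot be told apart. The part of each was not tested. In edgeR's quasi-likelihood test 9 of the 10 were called higher, beside 40.2% of 14565 genes called in either direction, and the median log2 fold change was 4.11 beside -0.13 over all genes. Gpr143 (3.94 ± 1.14 SE, edgeR adjusted p = 0.0154) missed the limit. DESeq2 called all 10, beside 3525 genes called higher and 2714 lower. Mlana rose most, by 70.2-fold (6.13 ± 0.68, edgeR adjusted p = 8.41e-05), then Slc45a2 by 31.1-fold (4.96 ± 0.52) and Tyr by 27.8-fold (4.80 ± 0.24). Pmel, Dct and Tyrp1 rose by 18.9-fold, 18.3-fold and 16.3-fold. The receptor and regulators rose less, Kit by 9.99-fold, Sox10 by 7.76-fold and Mitf by 3.33-fold (1.73 ± 0.33). On 1 scale across all libraries, Mitf was at 0.805 and 0.659 CPM per kb of exon in E16.5 control and 1.84 and 2.99 in P0.5 control, whereas Mlana was at 0.165 and 0.258 against 12.0 and 18.1.

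**Figure D5:**
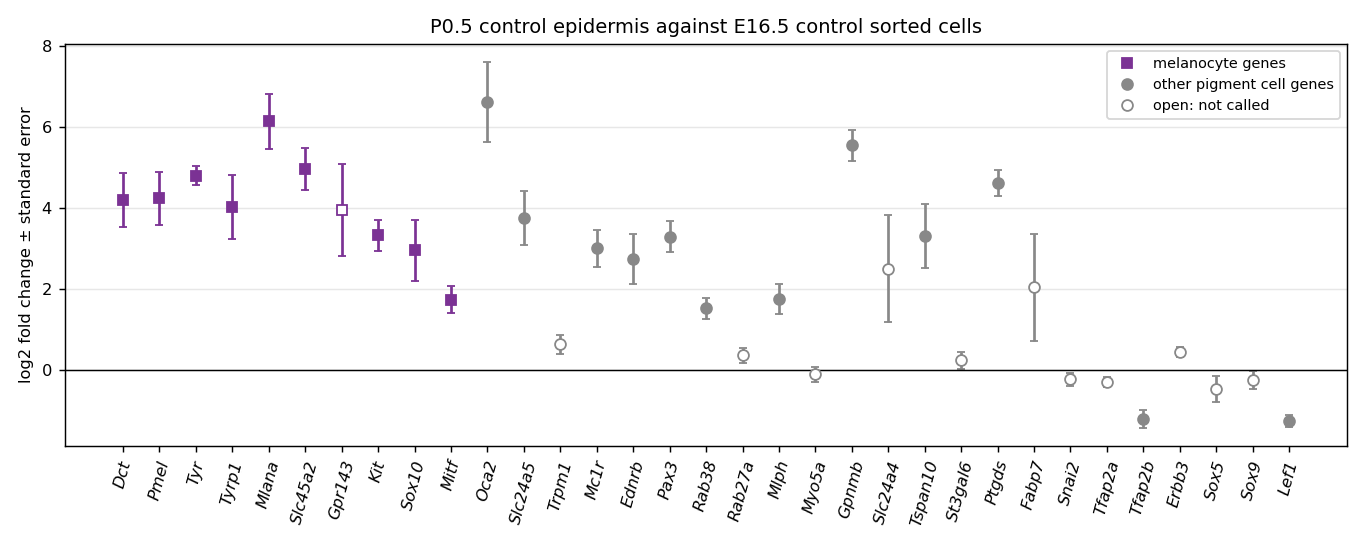
Log2 fold change with its standard error for P0.5 control against E16.5 control, for the 10 melanocyte genes (squares) and the further pigment cell genes tested (circles), filled where edgeR called them. The melanocyte genes lie between 1.73 for Mitf and 6.13 for Mlana, and the further genes between -1.26 for Lef1 and 6.60 for Oca2, which had 1 and 0 counts in E16.5 control.

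The further pigment cell genes divided in this comparison. Of the 23 tested, edgeR called 10 higher and 2 lower, beside 40.2% of all genes called in either direction. Oca2, a melanosomal anion transporter with 1 and 0 counts in E16.5 control, Ptgds (4.61 ± 0.32 SE) and Gpnmb (5.54 ± 0.38) were among those higher, while Tfap2b and Lef1, which other cells of the skin also express, were lower. These 5 genes were named after their values were seen. Markers of other cells did not all move with them: edgeR called 9 of 11 macrophage markers higher, 0 of 10 tested glial markers higher and 2 lower, 1 of 8 mast cell markers higher and 1 lower, 1 of 9 fibroblast markers higher and 1 lower, and 0 of 7 endothelial markers in either direction. Glial markers summed to 206.3 and 264.8 CPM in E16.5 control and 72.4 and 61.9 in P0.5 control, and without Egr2, which supplied most of the E16.5 sum, to 58.6 and 73.2 against 44.4 and 41.7. Macrophage markers summed to 18.5 and 42.6 CPM against 172.2 and 200.7.

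Per kb of exon, the order of levels in P0.5 control was Dct (119.9 and 120.4 CPM per kb), Pmel (70.1 and 86.4), Mlana (12.0 and 18.1), Kit (8.62 and 12.0), Tyr (6.32 and 7.96), Tyrp1 (7.42 and 6.36), Sox10 (4.75 and 9.03), Slc45a2 (4.10 and 7.58), Mitf (1.84 and 2.99) and Gpr143 (0.309 and 0.965). Dct, Pmel and Mlana were separated without overlap, Mlana and Kit all but touched, and Tyr, Tyrp1, Sox10 and Slc45a2 overlapped one another. In E16.5 control Dct (3.41 and 9.75 CPM per kb) and Pmel (1.79 and 6.55) again had the highest means and overlapped each other. Kit (1.01 and 1.06) and Mitf (0.805 and 0.659) followed them together with Sox10 (0.194 and 1.62), and Mlana was at 0.165 and 0.258, level with Tyr (0.233 and 0.282). In Kansl1 cKO Dct (248.7 and 282.5), Pmel (156.1 and 168.1) and Mlana (32.7 and 33.5) kept the same order as in P0.5 control.

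Across the 8 libraries, with each experiment centred on its own mean, the gene with the pattern most like the mean of the 10 was Igsf11 (Pearson r = 0.974), an adhesion molecule gene, followed by Zfyve28 (0.971), Clk2 (0.967), Bag6 (0.962) and Srebf2 (0.960), out of 14555 genes. These are descriptions over 8 libraries that share depth and batch within an experiment. Of the 10 themselves, Pmel followed the mean most closely (0.951) and Mitf least (0.524).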

How the data were processed

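RNA of 8 libraries was prepared by the authors with a directional poly(A) kit, and paired reads were aligned to mm10 (HISAT2 in the methods, TopHat2 per the labels) and counted with HTSeq. The strand setting and annotation of the counting are not given in the sources used here. The deposited files hold raw read counts per gene symbol, and rows naming no gene, 21.1% to 26.0% of each file, entered neither library sizes nor tests. Counts were tested here with edgeR 4.0.16 (R 4.3.3): filterByExpr, TMM factors, glmQLFit and glmQLFTest, Benjamini-Hochberg adjustment over all genes tested. Calls needed an adjusted p of at most 0.01 and a change over 1.5-fold, in fits of 1 experiment each, or of all 8 libraries across stages and for differences. DESeq2 1.42.0, other scalings, other filters, a replicate block and leaving out each library were the alternatives. CPM values in the text are TMM-scaled within the experiment, and those per kb, and all E16.5 against P0.5 values, over all libraries. Correlations used log2 CPM with a prior count of 2. The scripts were tested on simulated data. Replicate libraries differed by more than sampling noise (chi-square per degree of freedom 23.5 to 44.1). Named genes are the 10 genes, up to 5 genes of each further list called by edgeR or DESeq2 within an experiment, by adjusted p, the gene of each marker list with the highest mean over all libraries, and the 5 genes most like the mean, and the text says which others were picked after their values were seen. The genes and lists were chosen with earlier results of these data known.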

Additional observations from a re-analysis of the deposited data

Results flagged for a closer look

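The effect on Mitf differed between the experiments at an edgeR adjusted p of 0.05 but was not called by edgeR at the limit of 0.01. Of all genes tested, 31.2% had an unadjusted p under 0.05 for this difference. The MOF cKO effect minus the Kansl1 cKO effect was -1.86 on the log2 scale (SE 0.47, edgeR adjusted p = 0.0330, DESeq2 adjusted p = 0.00543), with both MOF cKO libraries below their controls and both Kansl1 cKO libraries above theirs. Under the alternatives it ran from -2.28 to -1.54. The part of cells other than melanocytes in the Mitf values was not tested. Stage, isolation and sequencer differ between the experiments together with the deleted gene and cannot be told apart from it.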

How the results depend on the processing

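In MOF cKO, where edgeR called 0 of 9 genes, 1 (Mlana) was called at an adjusted p of 0.05, with DESeq2, with RLE factors, with every gene of at least 1 count and in a fit of all 8 libraries, and leaving out 1 library gave 0 to 3. The median of 0.48 ran from -0.032 (without MOF cKO replicate 2) to 1.37 when 1 library was left out. In Kansl1 cKO, DESeq2 called 4, every gene with at least 1 count 8, and leaving out 1 library 0 to 6. For the difference between effects, an adjusted p of 0.05 gave 1. DESeq2 gave 2, beside 976 genes higher and 520 lower, and every gene with at least 1 count gave 2, beside 1112 higher and 539 lower. The causes were not tested. For P0.5 against E16.5 control, 8 to 10 of the 10 were called in the settings that kept all 8 libraries, beside 40.2% of all genes in the main fit. The log2 fold changes ran from 1.32 to 6.56 when 1 library was left out.

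Directions turned for MOF cKO values of Dct (-0.10 by library size alone, -1.30 to 1.13 leaving out 1 library), Pmel (-0.59 to 1.86), Tyrp1 (-1.82 to 2.15), Slc45a2 (-0.76 to 1.37) and Kit (-0.015 to 1.27), and for differences between effects of Sox10 (-0.058 by library size alone, -0.72 to 2.47), Gpr143 (-4.95 to 0.41), Dct (-2.30 to 0.13), Pmel (-1.497 to 0.95), Tyrp1 (-3.22 to 0.77), Slc45a2 (-1.81 to 0.45) and Kit (-0.98 to 0.16). Library size alone moved the median of all genes in MOF cKO to -0.32, beside -0.02 with TMM, and the genes called from 1395 higher and 1338 lower to 769 higher and 2743 lower.

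The replicate number as a replicate block gave 2 calls in MOF cKO (Mlana and Sox10), beside 1903 genes higher and 2263 lower of 13956. The block turned Slc45a2 there to 0.22. For P0.5 against E16.5 control it gave 8, beside 2369 genes higher and 2360 lower of 14565. It gave 0 in Kansl1 cKO and 0 for the difference. Same-numbered libraries deviated together at E16.5 (correlation 0.21 over genes) and oppositely at P0.5 (-0.20). The paper's methods describe 2 pairs of samples per experiment and the use of littermate controls. No source ties the replicate numbers to litters, so which libraries form a pair is not known, and the main test used no pairing. The crossed pairing at P0.5, added after seeing the data, gave 0 calls among the 10. With 2 libraries a group and few counts for several genes at E16.5, what could be detected was limited.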
